A study of Mus musculus with 8 samples.

Results

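Slc7a10, which encodes the neutral amino acid transporter Asc-1, and 9 genes of fat cells (Adipoq, Plin1, Cidec, Cfd, Lep, Ucp1, Cidea, Fabp4 and Retn) were followed through the lungs of a COPD mice model. The 10 genes were a named list, 10 of the 52636 genes in the count files, and 9 of them were among the 20546 genes with enough counts to be tested. Slc7a10 was put on the list because it was low in the COPD mice model on control diet, so its values in that comparison are given as a description without a p-value. The members were thus chosen by measured values of Slc7a10 in CPM, and the fat cell genes were added so that the level of Slc7a10 could be read beside theirs.

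The study asked how hochuekkito (TJ-41), a Japanese herbal medicine of the kampo tradition, acts on lungs damaged by porcine pancreatic elastase (PPE) and lipopolysaccharide (LPS). All mice were wild-type C57BL/6 males. They were fed either a control diet or a diet containing 2% TJ-41 from 8 weeks of age, received PPE or phosphate-buffered saline (PBS) into the trachea at 10 weeks and LPS or PBS from 12 weeks. The 8 RNA-seq libraries formed 4 groups of 2, namely control mice (PBS) on control diet, control mice on TJ-41 diet, COPD mice model (PPE and LPS) on control diet and COPD mice model on TJ-41 diet. The 2 chemicals were always given together, so an effect of PPE and an effect of LPS cannot be told apart. The age at which the RNA was taken and the number of mice behind each library are not given in the sources used here, so the p-values measure the spread between these libraries, which may be technical.

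The Slc7a10 protein carries small neutral amino acids such as glycine, alanine, serine and cysteine across the plasma membrane without sodium, and it works as a dimer with the heavy chain 4F2hc, the product of Slc3a2. It is known from neurons and astrocytes of the brain and as a surface protein of white fat cells. White fat cells store triglyceride in one large droplet coated with perilipin and release the hormones adiponectin, leptin and resistin, whereas brown fat cells hold many small droplets and burn fatty acids through the uncoupling protein. A lung sample can carry fat from the hilum, the large airways or the mediastinum, and lung tissue itself uses some of the same genes, Fabp4 in capillary endothelium and macrophages among them.

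Slc7a10 (ENSMUSG00000030495) lies on the plus strand at chr7:35186385-35201114 of the mm10 (GRCm38) build and Adipoq (ENSMUSG00000022878) on the plus strand at chr16:23146536-23158028. The sequences upstream of their start sites are shown because these genes stand for the transporter and for fat cells in the results below. Both were taken from RefSeq on GRCm38.p6, plus strand, and end at the base before the start site. Capitals mark the GC box GGGCGG in Slc7a10 and the CCAAT box CCAAT in Adipoq, each on either strand.
Slc7a10 chr7:35186135-35186384: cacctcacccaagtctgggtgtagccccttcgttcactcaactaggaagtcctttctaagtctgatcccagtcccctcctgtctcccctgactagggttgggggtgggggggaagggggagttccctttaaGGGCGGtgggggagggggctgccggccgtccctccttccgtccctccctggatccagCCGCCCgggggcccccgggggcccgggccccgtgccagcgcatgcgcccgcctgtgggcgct
Adipoq chr16:23146286-23146535: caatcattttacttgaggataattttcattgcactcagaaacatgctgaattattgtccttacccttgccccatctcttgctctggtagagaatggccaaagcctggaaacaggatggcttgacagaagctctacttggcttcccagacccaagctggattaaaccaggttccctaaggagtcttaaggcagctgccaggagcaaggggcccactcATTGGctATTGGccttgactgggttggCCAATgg

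The motif search covered the window from 250 bases before to 50 bases after the start site, on both strands. G and C made up 70.7% of the Slc7a10 window and 50% of the Adipoq window, against a median of 52.7% over 32851 promoters. Slc7a10 held 2 GC boxes, a motif found in 35.7% of all promoters, and Adipoq held 3 CCAAT boxes, found in 37.4%. Of the 10 members 8 had an entry in the promoter table, all but Cidea and Fabp4. Neither window held the E-box CACGTG (7.15% of promoters), the D-box forms TTATGTAA (0.938%) and TTACGTAA (0.119%), the nuclear receptor half-site AGGTCA (16.3%) or the TATA box TATAAA (13.6%). These motifs do not overlap one another in the windows shown, and a match is only a run of letters.

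The libraries held 18767295 to 20888042 counts assigned to genes, and values are given as CPM, the share of a library's counts scaled to a common total, after scaling by the trimmed mean of M values (TMM). Genes of lung epithelium were abundant, as the tissue label says, with the surfactant gene Sftpc at 9500 to 25900 CPM and the club cell gene Scgb1a1 at 11600 to 28900 CPM in the 8 libraries. The pair of libraries of the COPD mice model on control diet stood further apart than the other pairs, with an SD over genes of 0.798 for the log2 difference between its replicates against 0.394 to 0.469 elsewhere. A gene was called where edgeR's quasi-likelihood test gave a false discovery rate (FDR) under 0.05 and the log2 fold change was beyond 1 in either direction.

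Per kilobase of exon and averaged over the 8 libraries, Cfd was the most abundant of the 10 genes at 19.5 CPM per kb. Slc7a10 followed at 8.77 CPM per kb, above Cidec at 5.67, Fabp4 at 5.38 and Adipoq at 4.31. The next genes were Cidea at 1.27, Retn at 0.951 and Plin1 at 0.819 CPM per kb. Lep at 0.168 and Ucp1 at 0.0396 CPM per kb closed the order. The ranges over the 8 libraries of neighbours in this order overlapped, except between Adipoq (2.23 to 6.42 CPM per kb) and Cidea (0.745 to 2.12) and between Plin1 (0.371 to 1.36) and Lep (0.0933 to 0.351). The lung libraries thus held fat cell transcripts at modest levels, while leptin and the brown fat gene Ucp1 were close to the limit of detection.

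Slc7a10 stood at 24.4 and 25.9 CPM in control mice on control diet and at 25.3 and 25.4 CPM in control mice on TJ-41 feed. In the COPD mice model it stood at 9.7 and 6.61 CPM on control diet and at 16.7 and 14.1 CPM on TJ-41 diet. All 4 libraries of control mice were above all 4 of the COPD mice model, and the 2 diets of the COPD mice model did not overlap either. The group means were 25.1 ± 1.08, 25.3 ± 0.11, 8.16 ± 2.18 and 15.4 ± 1.83 CPM (SD, n = 2) in the same order, from 129 to 499 counts per library.

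On control diet the mean of Slc7a10 in the COPD mice model was 32.4% of the control mean, and the log2 fold change was -1.62 (SE 0.23). It was 1 of the 9 tested genes called in this comparison, in which 0.122% of all genes tested were called (0.102% higher and 0.0195% lower). With Fabp4 it was also 1 of 2 with an unadjusted p under 0.05, against 7.7% of all genes, and since the list was made with this value known nothing is read from these counts. Leaving out single libraries moved the log2 fold change between -1.93 and -1.37. The call was lost without either library of control mice on either diet or of the COPD mice model on TJ-41 diet, and in a fit to the 2 groups compared alone. In bulk tissue fewer cells that express a gene and less RNA per cell cannot be told apart.

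On TJ-41 diet, with a separate set of 4 libraries, the mean in the COPD mice model was 60.8% of that in control mice. The log2 fold change was -0.72 (SE 0.22), both libraries of the COPD mice model were lower than both of the control mice, and the gene did not pass (edgeR's quasi-likelihood test, Benjamini-Hochberg adjusted p = 0.576). Over the alternatives tried the adjusted p ranged from 0.0315 to 1.0, the lowest value coming from a fit to these 4 libraries alone. The change stayed short of the fold limit for a call in every one of them. With Adipoq as a covariate in the fit, the log2 fold change was -0.48 (SE 0.42) on TJ-41 diet and -1.54 (SE 0.26) on control diet. Adipoq itself was higher in every library of the COPD mice model (5.48 CPM or more) than in every library of control mice (5.28 CPM or less). The covariate thus takes up part of the comparison, and these values are not the change of Slc7a10 net of fat.

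Between diets, Slc7a10 did not separate in control mice, where the log2 difference of TJ-41 over control diet was 0.01 (SE 0.22). In the COPD mice model the mean on TJ-41 diet was 189% of that on control diet, a log2 fold change of 0.92 (SE 0.22). The COPD effect differed between diets by 0.91 (SE 0.31) on the log2 scale. Both of these differences use the libraries for which the gene was chosen, so they are given without a test. Without replicate 1 of the COPD mice model on control diet the diet difference became 1.22, and without replicate 2 it became 0.67.

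**Figure D1:**
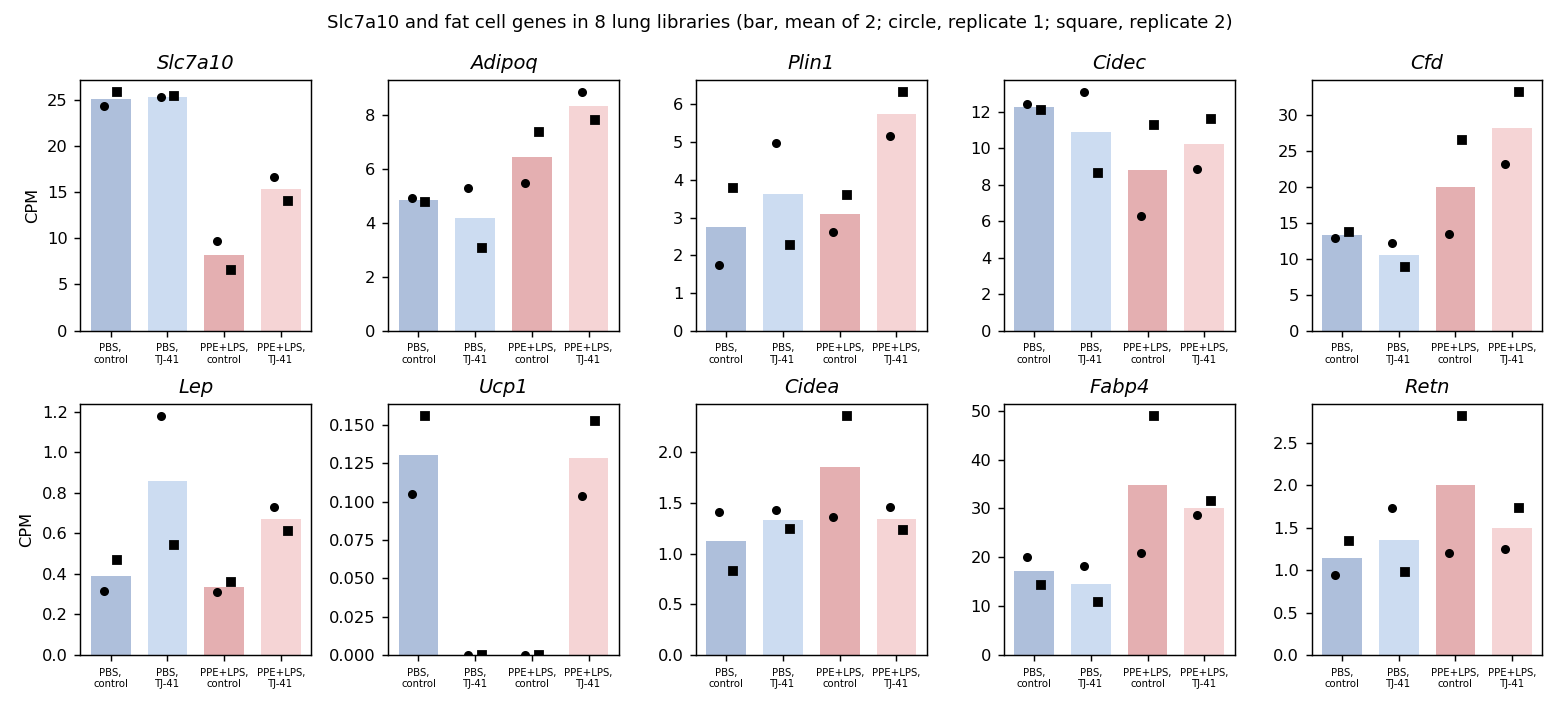
Level of each of the 10 genes in CPM (vertical axes, each from 0 with its own scale) in the 4 groups, with bars for the mean of 2 libraries, circles for replicate 1 and squares for replicate 2. Slc7a10 is between 24.4 and 25.9 CPM in the 4 PBS libraries and between 6.61 and 16.7 CPM in the 4 PPE and LPS libraries, while Adipoq and Cfd have their highest means in the COPD mice model on TJ-41 diet.

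The hormones of fat cells did not share this order. Adipoq encodes adiponectin, the most specific secreted product of fat cells on the list. It stood at 4.92 and 4.78 CPM in control mice on control diet, 5.28 and 3.08 CPM on TJ-41 diet, 5.48 and 7.38 CPM in the COPD mice model on control diet and 8.87 and 7.82 CPM on TJ-41 diet. Its libraries of the COPD mice model were above those of control mice on either diet, the opposite side from Slc7a10. The log2 fold change was 0.41 (SE 0.31) on control diet, which became 0.18 without replicate 2 of the COPD mice model. On TJ-41 diet it was 1.00 (SE 0.31), or 0.66 to 1.44 as single libraries were left out, and did not pass (edgeR's quasi-likelihood test, Benjamini-Hochberg adjusted p = 0.577).

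Cfd encodes adipsin, the complement factor D protease that fat cells secrete. It stood at 12.9 and 13.7 CPM in control mice on control diet, 12.2 and 8.81 CPM on TJ-41 diet, 13.5 and 26.5 CPM in the COPD mice model on control diet and 23.2 and 33.3 CPM on TJ-41 diet. Only on TJ-41 diet were both libraries of the COPD mice model above both of the control mice. There the log2 fold change was 1.43 (SE 0.33) (edgeR's quasi-likelihood test, Benjamini-Hochberg adjusted p = 0.373). The same difference passed with DESeq2 (adjusted p = 0.00695), with edgeR's exact test (adjusted p = 0.018) and with the quasi-likelihood test fitted to these 4 libraries (adjusted p = 0.0127). Each of these also called more genes over all, 137 of 20546 with the exact test and 248 of 19809 in the fit to 4 libraries. On control diet the log2 fold change of 0.59 (SE 0.33) rested on replicate 2 of the COPD mice model, being 0.02 without it.

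Lep encodes leptin, the hormone that reports fat stores to the brain. It stood at 0.314 and 0.467 CPM in control mice on control diet, 1.18 and 0.541 CPM on TJ-41 diet, 0.313 and 0.359 CPM in the COPD mice model on control diet and 0.73 and 0.614 CPM on TJ-41 diet. The libraries of the COPD mice model overlapped those of control mice on both diets. Its log2 fold change was -0.21 (SE 0.61) on control diet, or -0.47 to 0.09 as single libraries were left out. On TJ-41 diet it was -0.36 (SE 0.52). These values came from 6 to 23 counts per library, so a difference of this size was not detectable at this depth.

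Retn encodes resistin, which mouse fat cells secrete. It stood at 0.942 and 1.35 CPM in control mice on control diet, 1.74 and 0.973 CPM on TJ-41 diet, 1.2 and 2.82 CPM in the COPD mice model on control diet and 1.25 and 1.74 CPM on TJ-41 diet. The groups overlapped on both diets. The log2 fold change was 0.81 (SE 0.50) on control diet, or 0.07 when replicate 2 of the COPD mice model was left out. It was 0.14 (SE 0.51) on TJ-41 diet.

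Among the proteins of the fat droplet, Plin1 encodes perilipin 1, the coat that controls access of lipases. It stood at 1.73 and 3.79 CPM in control mice on control diet, 4.97 and 2.27 CPM on TJ-41 diet, 2.61 and 3.59 CPM in the COPD mice model on control diet and 5.16 and 6.34 CPM on TJ-41 diet. The COPD mice model was the higher group on TJ-41 diet and lay inside the range of control mice on control diet. The log2 fold change was 0.17 (SE 0.47) on control diet, which ran from -0.29 to 0.84 as single libraries were left out. On TJ-41 diet it was 0.66 (SE 0.45), or 0.21 to 1.35 as single libraries were left out (edgeR's quasi-likelihood test, Benjamini-Hochberg adjusted p = 0.785).

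Cidec encodes the droplet fusion protein FSP27. It was the one fat cell gene whose libraries lay lower in the COPD mice model, and that on control diet. It stood at 12.4 and 12.1 CPM in control mice on control diet, 13.1 and 8.65 CPM on TJ-41 diet, 6.26 and 11.3 CPM in the COPD mice model on control diet and 8.87 and 11.6 CPM on TJ-41 diet. The log2 fold change was -0.48 (SE 0.32) on control diet. As single libraries were left out it ran from -0.97, without replicate 2 of the COPD mice model, to -0.13. It was -0.09 (SE 0.32) on TJ-41 diet, where the groups overlapped.

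Cidea encodes a relative of FSP27 typical of brown fat. It stood at 1.41 and 0.831 CPM in control mice on control diet, 1.43 and 1.24 CPM on TJ-41 diet, 1.36 and 2.36 CPM in the COPD mice model on control diet and 1.46 and 1.23 CPM on TJ-41 diet. The groups overlapped on both diets, with log2 fold changes of 0.73 (SE 0.43) and 0.00 (SE 0.43). The value on control diet ran from 0.28 to 1.16 as single libraries were left out.

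Ucp1 encodes the uncoupling protein that defines brown fat. It had 2 and 3 counts in control mice on control diet, 2 and 3 counts in the COPD mice model on TJ-41 diet and 0 counts in the other 4 libraries. A count of 0 allows a level of up to 0.153 to 0.162 CPM in these libraries (3 counts, counting error only), so all 8 were at or under that floor and no fold change is given.

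Fabp4 encodes a fatty acid carrier of fat cells, capillary endothelium and macrophages. It stood at 20 and 14.4 CPM in control mice on control diet, 18.2 and 10.8 CPM on TJ-41 diet, 20.8 and 48.9 CPM in the COPD mice model on control diet and 28.6 and 31.5 CPM on TJ-41 diet. Both libraries of the COPD mice model were above both of the control mice on each diet. The log2 fold change was 1.02 (SE 0.39) on control diet, or 0.27 when replicate 2 of the COPD mice model was left out. It was 1.05 (SE 0.39) on TJ-41 diet. The value on TJ-41 diet did not pass (edgeR's quasi-likelihood test, Benjamini-Hochberg adjusted p = 0.693) and passed in the fit to these 4 libraries alone (adjusted p = 0.0379), which called 248 of 19809 genes.

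**Figure D2:**
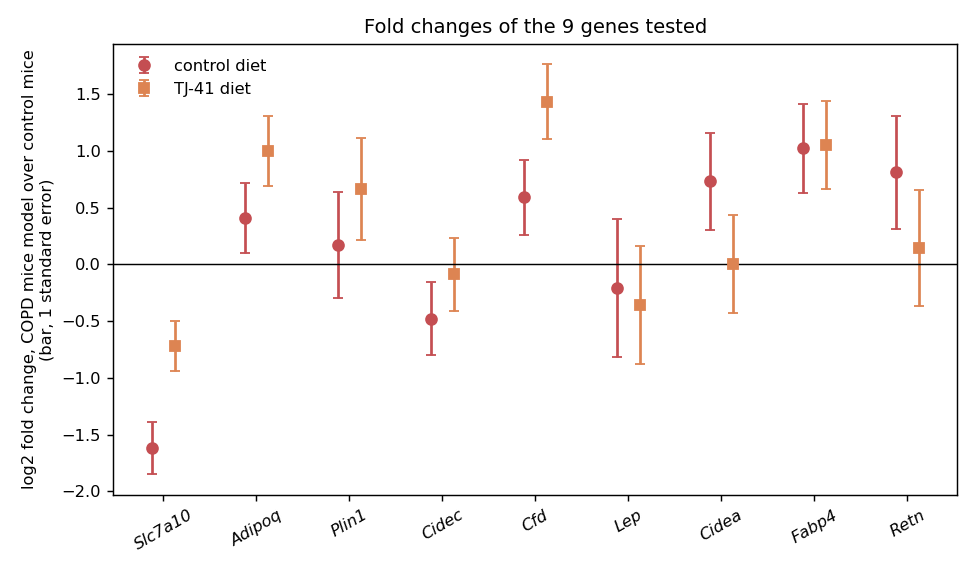
Log2 fold change of the COPD mice model over control mice (vertical axis) for the 9 genes tested, circles for control diet and squares for TJ-41 diet, with bars of 1 standard error. Slc7a10 lies lowest on both diets, at -1.62 and -0.72, and the highest value on TJ-41 diet is that of Cfd at 1.43.

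Over the 8 fat cell genes tested, 6 had a log2 fold change above 0 on control diet, with a median of 0.50 against 0.0073 over all genes tested. On TJ-41 diet 6 were above 0, Cidea by less than 0.01, with a median of 0.40 against -0.0016. On control diet the libraries did not overlap for Adipoq and Fabp4, which were higher, and for Slc7a10 and Cidec, which were lower, where 13.6% of all genes were higher without overlap and 14.1% lower. On TJ-41 diet Adipoq, Plin1, Cfd and Fabp4 were higher without overlap and Slc7a10 lower, where 28.5% of all genes were higher without overlap and 27.9% lower. None of the 9 genes was called on TJ-41 diet by edgeR's quasi-likelihood test, where 0.0779% of all genes were called (0.0584% higher and 0.0195% lower). At an unadjusted p under 0.05 the number was 4 of 9, against 6.56% of all genes. DESeq2 and the exact test each called 1, Cfd, where the exact test called 137 of 20546 genes.

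Between diets, the fat cell genes gave no call. In control mice none of the 9 genes tested was called by edgeR's quasi-likelihood test, and none had an unadjusted p under 0.05, against 0% of all genes called and 1.64% at that unadjusted p. DESeq2 and the exact test also called none of the 9, and called 10 and 6 of the 20546 genes. Lep was the one gene higher without overlap on TJ-41 diet (log2 fold change 1.13, SE 0.55) and Cfd the one lower (-0.34, SE 0.33), where 19.1% of all genes lay in each class. In the COPD mice model none of the 8 fat cell genes was called by the quasi-likelihood test or had an unadjusted p under 0.05, against 0.00487% and 4.1% of all genes. DESeq2 and the exact test called none of them either, and called 12 and 6 of all genes. Slc7a10, Adipoq, Plin1 and Lep were higher without overlap on TJ-41 diet, where 14.1% of all genes were, with log2 fold changes of 0.38 (SE 0.30) for Adipoq, 0.89 (SE 0.46) for Plin1 and 0.99 (SE 0.58) for Lep. For the difference of the COPD effects between diets, none of the 8 fat cell genes was called by the quasi-likelihood test or had an unadjusted p under 0.05, against 0% and 3.27% of all genes, and DESeq2 called none of them and 17 of all genes. The diet comparisons share their libraries with the comparisons of the COPD mice model.

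Set against Adipoq in the same library, Slc7a10 was 4.96 and 5.42 times as high in CPM in control mice on control diet and 4.79 and 8.25 times with TJ-41. Among the PPE and LPS libraries the ratio was 1.77 and 0.9 on control diet and 1.88 and 1.8 on TJ-41 diet. The ratio was lower in every library of the COPD mice model than in every library of control mice. The 9 fat cell genes together summed to 54.8 and 51.7 CPM in control mice on control diet, 58.0 and 36.3 CPM on TJ-41 diet, 51.5 and 103 CPM in the COPD mice model on control diet and 78.3 and 94.3 CPM on TJ-41 diet. The library with the lowest Slc7a10, replicate 2 of the COPD mice model on control diet, thus had the highest sum, of which Fabp4 made up 48.9 CPM. Fabp4, Cidea and Retn had their highest level in that library. Adipoq, Plin1, Cidec, Cfd, Lep and Ucp1 had theirs elsewhere, so the order of the sums rests largely on Fabp4, which is not particular to fat cells.

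Within a group, the library with more Adipoq was also the one with more Slc7a10 in 1 of 4 groups. By the same count Cidea went with Adipoq in 4 of 4 groups, Cidec, Fabp4 and Lep in 3, and Plin1, Cfd and Retn in 2. These are orders of 2 libraries and carry no test.

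**Figure D3:**
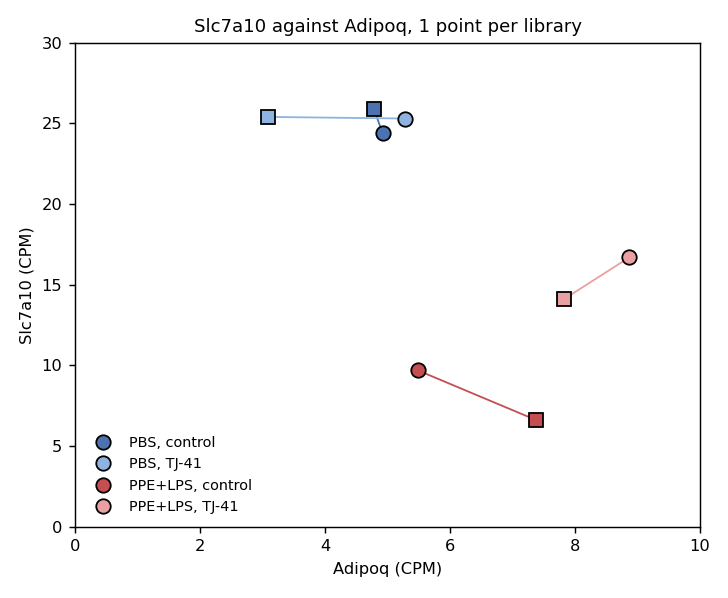
Slc7a10 (vertical axis, CPM) against Adipoq (horizontal axis, CPM), 1 point per library, with circles for replicate 1, squares for replicate 2 and a line joining the libraries of a group. The PBS libraries lie at 24.4 to 25.9 CPM of Slc7a10 over 3.08 to 5.28 CPM of Adipoq, and the PPE and LPS libraries lie lower and further right.

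Part of the Slc7a10 locus is shared. Its last 1088 bases, chr7:35200027-35201114, also lie in Lrp3, a receptor gene on the opposite strand, and 12.9% of the 50-base stretches of Slc7a10 transcripts occur in Lrp3. Whether the counting used the strand is not given in the sources used here, so reads from that stretch may belong to either gene. Lrp3 stood at 10.2 and 13.6 CPM in control mice on control diet, 10 and 12.9 CPM on TJ-41 diet, 7.3 and 12.4 CPM in the COPD mice model on control diet and 13.7 and 14.6 CPM on TJ-41 diet. Its log2 fold change was -0.28 (SE 0.29) on control diet, with overlapping groups, and 0.30 (SE 0.29) on TJ-41 diet. Of the other members, Cidea overlaps B430212C06Rik on the opposite strand, which had at most 11 counts in a library, and Plin1 shares 0.194% of its 50-base stretches with other genes.

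The genes whose log2 CPM followed that of Slc7a10 most closely over the 8 libraries, out of 18057 compared, held no fat cell gene of the lists used here. They were 4930515G16Rik (Pearson r = 0.992), Afap1l2, Dnase1, Neo1, Fam124b, Gm16284, D430020J02Rik, Cops3, A730017L22Rik and Cyth3 (r = 0.965). The libraries fall into separate groups, so these values describe the order of the groups and have no p. Fam124b showed the lowest levels, at 20.7% and 5.94% of its mean in the PBS libraries in the COPD mice model on control diet and 28.7% and 31.6% on TJ-41 diet. Slc7a10 stood at 38.4% and 26.2% and at 66.1% and 55.8%. Neo1, which encodes the receptor neogenin, stood at 73.2% and 65.9% and at 83.5% and 79.9%.

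In the same ordering of genes by likeness to Slc7a10, Cidec ranked 5636 of 18056, Plin1 10291, Adipoq 14973, Cfd 15564, Retn 15882, Cidea 16507 and Fabp4 17524. Around Adipoq the order was different. The closest genes were Cln3 (r = 0.993), Emc9, Lpcat1, Sema4a, Mag, Ptpn7, Gata5, Efna1, Pde1b and Slc38a7 (r = 0.963), and Cfd ranked 62, Fabp4 182, Plin1 1776, Retn 3223, Cidea 5145 and Cidec 8414 of 18056. Cidec was thus nearer to Slc7a10 (r = 0.37) than to Adipoq (r = 0.08).

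**Figure D4:**
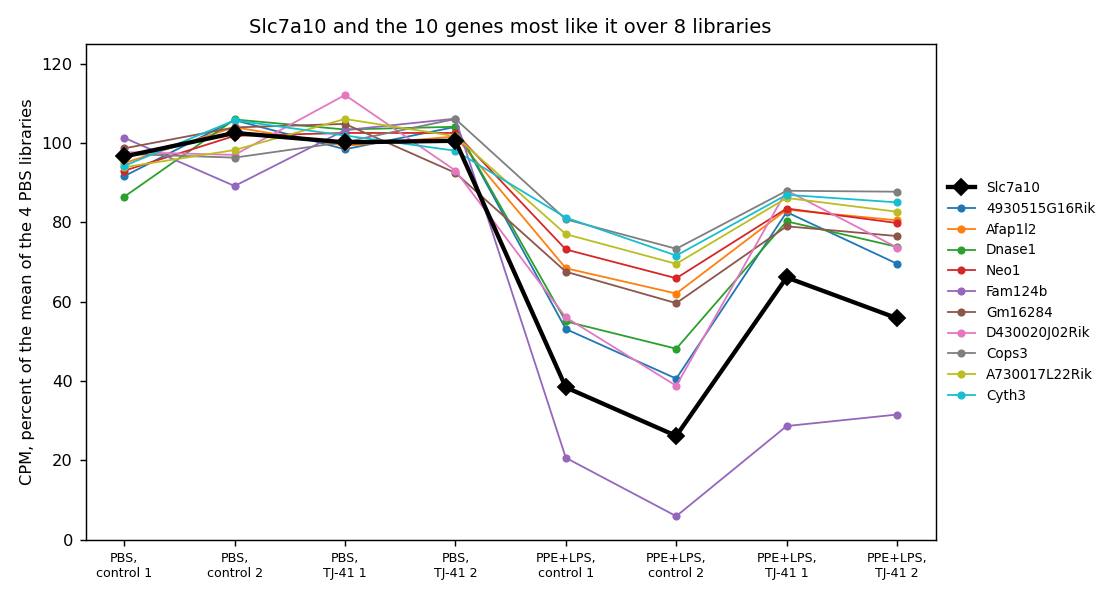
CPM of Slc7a10 (black diamonds) and of the 10 genes with the highest Pearson r to it (coloured circles) in each of the 8 libraries, as a percentage of each gene's own mean over the 4 PBS libraries (vertical axis, from 0). All 11 lines drop in the 4 PPE and LPS libraries and lie lowest in replicate 2 of the COPD mice model on control diet, where Slc7a10 is at 26.2% and Fam124b at 5.94%.

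Beyond the members, 20 other adipocyte genes were listed and 19 tested. On control diet 16 of the 19 had a log2 fold change above 0 and the median was 0.41, against 12 of 19 and a median of 0.24 on TJ-41 diet. None was called by edgeR's quasi-likelihood test on either diet, and 4 on each diet had an unadjusted p under 0.05. Over all genes that unadjusted p was met by 7.7% on control diet and 6.56% on TJ-41 diet, the shares against which the counts of this and the following lists stand. The fit to the 2 groups alone called Nnat (adjusted p = 0.00752, edgeR) and Pck1 (adjusted p = 0.0329), an enzyme of glyceride synthesis, higher on TJ-41 diet. In that fit 248 of 19809 genes were called. The highest on control diet was Nnat, which encodes neuronatin, a small membrane protein of neural and fat tissue. Nnat stood at 8.53 and 8.46 CPM in control mice on control diet, 8.96 and 8.7 CPM on TJ-41 diet, 13.8 and 41.7 CPM in the COPD mice model on control diet and 25.9 and 19.5 CPM on TJ-41 diet, so the COPD mice model was higher on both diets. Its log2 fold changes were 1.71 (SE 0.43) and 1.36 (SE 0.43), with edgeR's Benjamini-Hochberg adjusted p = 0.329 and adjusted p = 0.586. DESeq2 and the exact test each called it on control diet, where they called 171 and 210 of 20546 genes. The lowest was Npr3, the natriuretic peptide clearance receptor of fat and other tissues, at -0.55 and -1.29.

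Of 11 transcription factors that drive fat cell formation, all tested, 10 lay above 0 on each diet, with medians of 0.23 and 0.41. None was called by any of the 3 tests, and at an unadjusted p under 0.05 the number was 0 on control diet and 2 on TJ-41 diet. Pparg, the master regulator of fat cell formation, stood at 0.11 and 0.58. The highest on control diet was the coactivator gene Ppargc1b at 1.06 and the lowest Srebf1, a driver of fatty acid synthesis, at -0.04. The 17 genes of lipid synthesis, uptake and breakdown had medians of 0.07 and 0.20, with none called by the 3 tests and 2 and 4 at an unadjusted p under 0.05. They ran on control diet from Cd36, a fatty acid receptor, at -0.38 to Acsl1, an acyl-CoA synthetase, at 0.58.

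Of 16 brown fat genes 12 were tested, with medians of 0.05 and 0.01. None was called by the 3 tests on either diet and none had an unadjusted p under 0.05. S100b was highest at 0.63 and Cpt1b, the muscle and brown fat carnitine transferase, lowest at -0.84. The defining genes Elovl3, Otop1, Zic1 and Lhx8 did not reach the count filter and were at most 0.208 CPM in any library.

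Among the relatives of Slc7a10, 16 genes of the SLC7 family and its heavy chains were listed and 11 tested, with medians of 0.08 on control diet and 0.20 on TJ-41 diet. None was called by the 3 tests on either diet, and 1 and 3 had an unadjusted p under 0.05. Slc3a2, the heavy chain partner, was abundant at 143 to 210 CPM and differed by 0.09 and 0.20. Slc7a2, a cationic amino acid transporter, was highest on control diet at 0.77 and Slc7a1, another, lowest at -0.43. Slc7a5, the large neutral amino acid transporter LAT1, ran opposite to Slc7a10. It stood at 6.43 and 10.1 CPM in control mice on control diet, 7.22 and 6.43 CPM on TJ-41 diet, 11.3 and 13.5 CPM in the COPD mice model on control diet and 15.4 and 13.4 CPM on TJ-41 diet. Its log2 fold change was 0.58 (SE 0.26) and 1.08 (SE 0.27), the latter with edgeR's Benjamini-Hochberg adjusted p = 0.408 and adjusted p = 0.0164 in the fit to those 4 libraries alone. That fit called 248 of 19809 genes. Slc7a5 was named after its values had been seen.

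The 13 other transporters of small neutral amino acids had medians of -0.20 and 0.08, and edgeR's quasi-likelihood test called none, with 1 and 5 at an unadjusted p under 0.05. Slc6a20a, a transporter of proline and glycine, was highest. It stood at 6.28 and 9.97 CPM in control mice on control diet, 12.1 and 11.0 CPM on TJ-41 diet, 20.2 and 25.7 CPM in the COPD mice model on control diet and 27.8 and 20.7 CPM on TJ-41 diet, with no overlap on either diet. Its log2 fold changes were 1.5 (SE 0.27) and 1.07 (SE 0.27), with edgeR's Benjamini-Hochberg adjusted p = 0.123 and adjusted p = 0.419. DESeq2 called it on both diets (adjusted p = 0.000183 and adjusted p = 0.0453). Slc38a3, a glutamine transporter, was lowest at -0.42 on control diet. Of 10 genes of serine and glycine metabolism 8 were tested, with medians of -0.11 and 0.00, from Gcat at -0.35 to Psat1, a serine synthesis enzyme, at 0.18 on control diet. The 4 receptors of fat cell hormones had medians of -0.08 and -0.16, from Cdh13, which binds adiponectin as T-cadherin, at -0.75 to Adipor1 at 0.19. None of these genes of metabolism and receptors was called by the 3 tests, and at an unadjusted p under 0.05 Cdh13's list had 1 gene on control diet and 2 on TJ-41 diet and the other list had 0.

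**Figure D5:**
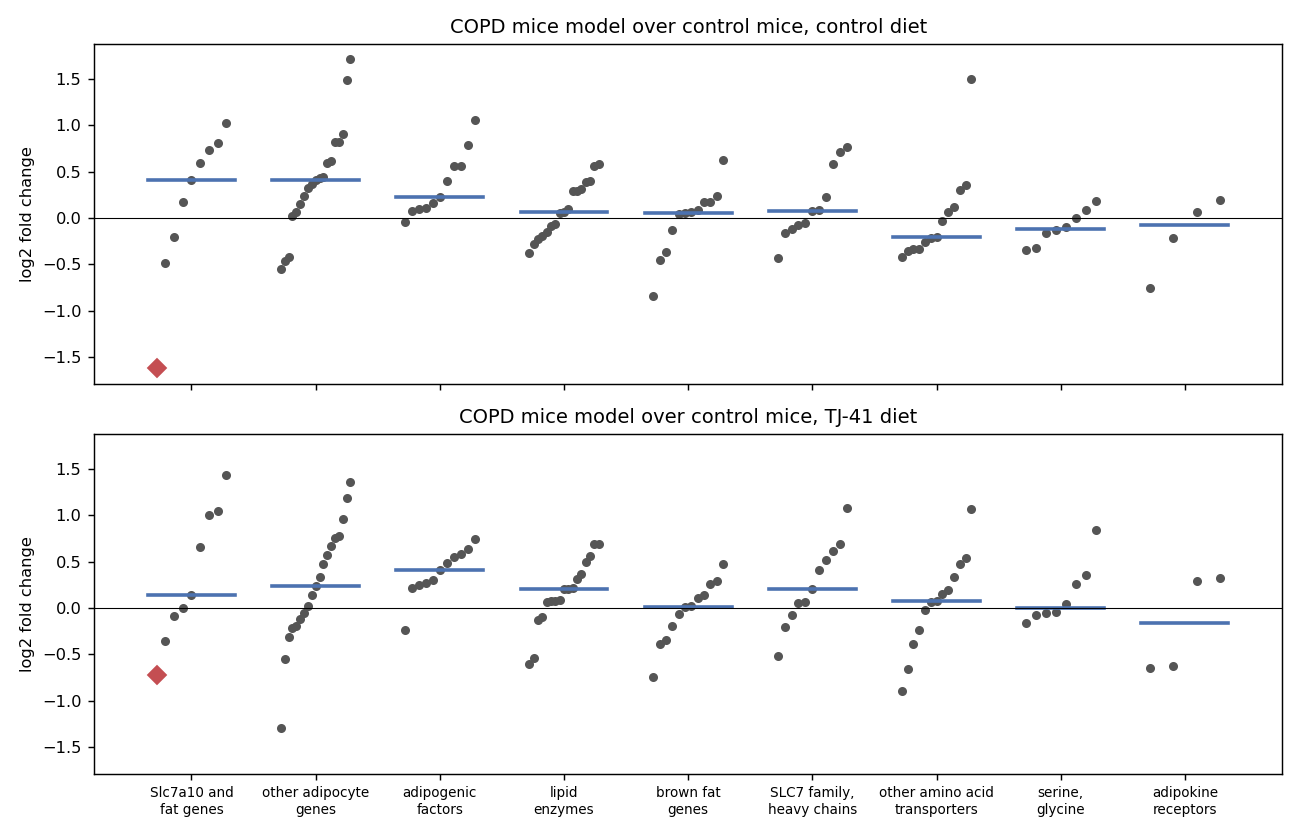
Log2 fold change of the COPD mice model over control mice (vertical axes) for each tested gene of 9 lists, control diet above and TJ-41 diet below, with a blue line for the median of a list and a red diamond for Slc7a10. Slc7a10 at -1.62 is the lowest point of the upper panel, whereas the median of the other adipocyte genes is 0.41 above and 0.24 below.

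Markers of other cell types and genes of the body clock were measured in the same libraries, and their part in the levels of Slc7a10 and of the fat cell genes was not tested. The 9 alveolar macrophage markers, all tested, summed to 663 to 837 CPM in control mice on control diet, 653 to 810 CPM on TJ-41 diet, 1000 to 1620 CPM in the COPD mice model on control diet and 1320 to 1560 CPM on TJ-41 diet. Chil3, a chitinase-like protein, made up most of these sums in the COPD mice model, and the other 8 markers summed to 292 to 400, 271 to 334, 228 to 376 and 360 to 407 CPM. On control diet 5 of the 9 had a log2 fold change below 0 and the median was -0.23, and on TJ-41 diet the median was 0.21. DESeq2 called Chil3 higher (1.32) and Siglecf (-1.64), Fabp1 (-1.67) and Krt79 (-1.12) lower on control diet, and Chil3 higher on TJ-41 diet (1.30). The 7 capillary endothelium markers, of a cell type that also uses Fabp4, summed to 1750 to 1800, 1600 to 1710, 1220 to 1720 and 1190 to 1500 CPM in the same order. The 8 heart and pulmonary vein muscle markers summed to 435 to 492, 356 to 542, 525 to 694 and 258 to 317 CPM, and the 5 mesothelium markers to 146 to 177, 156 to 173, 87.9 to 223 and 181 to 262 CPM. Between diets in the COPD mice model, all 8 muscle markers were lower without overlap on TJ-41 diet, where 14.9% of all genes were. The median log2 fold changes there were -1.12 for muscle, 0.74 for mesothelium, 0.24 for macrophage and -0.19 for endothelium markers. For these 4 lists edgeR's quasi-likelihood test called none on either diet, with 4 macrophage, 1 endothelium, 1 muscle and 0 mesothelium markers at an unadjusted p under 0.05 on control diet and 2, 1, 2 and 0 on TJ-41 diet. DESeq2 and the exact test also called Nppa of the muscle list higher on control diet and Ednrb of the endothelium list lower on TJ-41 diet. The exact test called 210 of all genes on control diet and 137 on TJ-41 diet. The 15 clock genes summed to 694 to 936 and 711 to 872 CPM in control mice and to 1830 to 1860 and 1870 to 1890 CPM in the COPD mice model. In each comparison of the COPD mice model 5 clock genes were called higher and 2 lower, where 0.102% and 0.0195% of all genes were on control diet and 0.0584% and 0.0195% on TJ-41 diet. Per3, Dbp, Tef and Hlf were called higher and Arntl and Npas2 lower on both diets, with Per2 higher on control diet and Nr1d1 on TJ-41 diet. The largest of these differences was that of Dbp, a transcription factor of clock output, with log2 fold changes of 3.36 and 4.43. The hour of tissue collection is not given in the sources used here, so collection time and treatment cannot be told apart.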

How the data were processed

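Lung RNA of 4 groups of 2 libraries was profiled by RNA-seq. The authors deposited 1 file per library of whole-number counts per Ensembl gene. The submitters' processing notes name HISAT2, edgeR and mm10, and the study's methods name CLC Genomics Workbench and edgeR with limits on the FDR (0.05) and the log2 fold change (1). The counter, annotation release, strand setting and treatment of reads with several matches are not given in the sources used here. Libraries held 18767295 to 20888042 counts. Symbols came from GENCODE M21 on GRCm38, in which 52489 of the 52636 identifiers were found.

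Genes were filtered with filterByExpr (count minimum 10, total minimum 15), scaled by TMM and fitted in edgeR 4.0.16 (R 4.3.3) with the quasi-likelihood test over all 4 groups, with no covariate. CPM for logs used a prior count of 2. DESeq2 1.42.0 and the exact test were alternatives, with other scalings and filters, a fit to the groups compared alone, the replicate number as a block, the Adipoq level as a covariate and each library left out. A correction for exon length was added after the data had been seen. Tests were first checked on simulated counts of 20228 genes, 195 of them changed in 1 group. The quasi-likelihood test made 8 false calls, DESeq2 23 and the exact test 34. They recovered 78, 81 and 83 of 98 genes changed by 2 on the log2 scale, and 57, 66 and 71 of 97 changed by 1.5. Members and lists were chosen with earlier results of these data known. Each member was named with all its values, and from each list the extremes of the control diet comparison and genes called.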

Additional observations from a re-analysis of the deposited data

How the results depend on the processing

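The 1 gene called on control diet, Slc7a10, was not called (0 of 9) with library size alone as the scaling, with genes of a mean of at least 1 CPM, with only the groups compared, with the replicate number as a block, with the Adipoq level as a covariate or with the exon length correction chosen after seeing the data, although its log2 fold change kept its sign in all of them; the cause was not tested. With single libraries left out, the control diet log2 fold change ran from -1.93 to -1.37 for Slc7a10 and from 0.27 to 1.5 for Fabp4. The lone library of a reduced group is assumed to vary like the other groups, so calls in such fits are not counted here. On TJ-41 diet the count of 0 became 1 with DESeq2 and with the exact test and 2 with only the groups compared. Calls over all genes rose under each of these settings, reaching 137 of 20546 with the exact test. With only the groups compared they reached 248 of 19809, so the rise was not particular to the members. Within the COPD mice model the diet difference of Slc7a10 ran from 0.67 to 1.22 with single libraries left out, and is given without a test. On TJ-41 diet the log2 fold change changed sign with Adipoq as a covariate for Plin1 (-0.45), Fabp4 (-0.32) and Retn (-1.17). Adipoq differed between the groups compared, so that fit cannot part its level from the treatment. With single libraries left out the log2 fold change on TJ-41 diet ran from -0.36 to 0.25 for Cidec, from -0.81 to 0.32 for Lep and from -0.22 to 0.62 for Retn. The replicate numbers do not pair the libraries: the differences between replicates correlated between groups at -0.234 to 0.108, and with the number as a block 0 of the 9 genes was called in the control diet comparison. With 2 libraries per group and a common biological coefficient of variation of 0.208, small changes of genes of few counts, Lep and Ucp1 among them, were out of reach.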
